A study of Homo sapiens with 6 samples.

Results

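Antibody chains of JJN3 cells, a human multiple myeloma line, were followed here through 8 genes: the heavy chain constant genes IGHM, IGHG1, IGHA1 and IGHA2, the light chain constant genes IGKC and IGLC2, and the assembly factors JCHAIN and MZB1. They were taken by symbol from the 60728 genes of the count table, in which each of the 8 symbols belonged to 1 gene. RNA-seq had been done on 6 libraries in 3 groups of 2: JJN3 cells with DMSO, the vehicle, JJN3 cells exposed to WNK463 for 2 h, and JJN3 cells exposed to it for 6 h. The compound blocks the WNK kinases, regulators of cation-chloride cotransport. The line was labelled wild type in every group, was grown in DMEM and IMDM with serum, and gave total RNA by Trizol extraction. The sample protocol names 5 µM of WNK463 where the design text names 1 µM, so the dose of these libraries is uncertain. No collection time is stated for the DMSO cells, and time in culture cannot be told apart from treatment. Whether the replicates were separate cultures is not stated, and p-values then reflect no more than the spread among the libraries, which may be technical.

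A plasma cell builds an antibody from 2 kinds of chain. The heavy chain constant gene in use sets the isotype (IgM, IgG, IgA or IgE), and the light chain is either kappa, from IGKC, or lambda, from the IGLC genes. A rearranged variable gene is spliced onto the constant exons of each chain. JCHAIN, the joining chain, links IgM and IgA into polymers and is also made by many plasma cells that secrete other isotypes. MZB1 is a chaperone-like protein of the endoplasmic reticulum that helps heavy and light chains to assemble. Myeloma cells descend from 1 plasma cell clone and usually keep its isotype and light chain.

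The reference sequences below show what separates the constant genes that reads had to tell apart, and are taken from GENCODE 29 transcripts on GRCh38. The hinge exon is shown for IGHG1, at chr14:105742341-105742385 on the minus strand, with the hinges of IGHG2 at chr14:105644068-105644103 and IGHG4 at chr14:105625344-105625379. Capitals in the IGHG2 and IGHG4 hinges mark bases with no identical partner in an alignment with IGHG1.
IGHG1: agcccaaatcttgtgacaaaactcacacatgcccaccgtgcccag
IGHG2: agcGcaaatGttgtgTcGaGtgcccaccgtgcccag
IGHG4: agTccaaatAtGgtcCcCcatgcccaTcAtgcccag
The hinge of IGHG1 is 45 bases long, against 36 in IGHG2 and IGHG4. Of the 36 bases, 31 matched IGHG1 in IGHG2 and 29 in IGHG4. For the IgA pair the start of the second constant exon is shown, at chr14:105708010-105708144 in IGHA1 and chr14:105587779-105587874 in IGHA2, both on the minus strand. Capitals in IGHA1 mark bases with no identical partner in an alignment with IGHA2.
IGHA1: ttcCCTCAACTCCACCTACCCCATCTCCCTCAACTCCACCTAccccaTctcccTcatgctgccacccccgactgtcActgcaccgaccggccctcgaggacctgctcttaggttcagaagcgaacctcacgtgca
IGHA2: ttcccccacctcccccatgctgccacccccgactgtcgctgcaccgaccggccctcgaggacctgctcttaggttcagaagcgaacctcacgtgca
The light chains are shown by the first 90 bases of their constant exons, for IGKC at chr2:88857594-88857683 on the minus strand and for IGLC2 at chr22:22900976-22901065 on the plus strand.
IGKC: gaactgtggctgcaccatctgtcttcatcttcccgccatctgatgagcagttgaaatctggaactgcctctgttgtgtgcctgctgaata
IGLC2: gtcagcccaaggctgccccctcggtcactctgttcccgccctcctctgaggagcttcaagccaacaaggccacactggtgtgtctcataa
Of all 100-base windows of its transcripts, IGKC, IGHM, JCHAIN and MZB1 had 100% that occurred in no other gene. IGHA1 and IGHA2 each had 92.3%, and the remaining windows of each occurred in the other. IGHG1 had 69.7%, with the rest shared with IGHG3, IGHG2 or IGHG4, and IGLC2 had 70%, so counts of the 4 IgG genes and of the IGLC genes are uncertain where a fragment falls in shared sequence.

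Counts assigned to genes totalled 18013790 to 24002291 per library, and levels are given as CPM, counts scaled to library size with TMM factors (trimmed mean of M-values). Levels of different genes are compared only as CPM per kb of exon. A count of 3, taken as the floor, was worth 0.128 to 0.166 CPM. The plasma cell character of the line was checked on 8 markers, among them SDC1, TNFRSF17, PRDM1, IRF4 and XBP1, whose summed level was 1370 and 1430 CPM in DMSO, 1350 and 1390 CPM at 2 h, and 1310 and 1340 CPM at 6 h. CD27, another of the 8, had 3 or fewer counts per library and SLAMF7 2.1 to 5.59 CPM. Single markers were called both ways, SDC1 higher at 2 h (0.37), and SLAMF7 higher (1.15) and XBP1 lower (-0.33) at 6 h, each against DMSO. The 6 B cell markers summed to 31.3 to 37.5 CPM over the libraries, with CD22 at 0 in all 6. CIITA made up most of that sum, with means of 31.9 CPM in DMSO, 28.5 CPM at 2 h and 33 CPM at 6 h. Of its exonic bases 23.4% overlap other genes. PAX5 was called lower at 6 h, with 1.71 ± 0.6 CPM against 3.81 ± 0.689 CPM in DMSO (log2 change -1.15, edgeR adjusted p = 0.00894). Markers of T and NK cells (1.28 to 4.83 CPM), myeloid cells (3.22 to 4.58 CPM) and erythroid cells (0 to 0.764 CPM) were low. TRAC, a T cell receptor constant gene, made up most of the T and NK sum, with 3.96 ± 1.01 CPM at 6 h and 1.97 ± 0.653 CPM in DMSO (log2 change 1.01, edgeR adjusted p = 0.0373), while CD3D and CD3G were at 0 in all libraries. TRAC was not called without 6 h replicate 2 (0.72, adjusted p = 0.322) or DMSO replicate 2 (0.70, adjusted p = 0.248). The 6 epithelial and stromal markers, EPCAM foremost, summed to 102 and 102 CPM in DMSO. Their sum was 126 and 130 CPM at 2 h, and 119 and 126 CPM at 6 h. EPCAM was called higher than in DMSO at 2 h (log2 change 0.29, edgeR adjusted p = 0.00756). CDH1 was called higher at 2 h (0.61, adjusted p = 0.048) and at 6 h (1.07, adjusted p = 8.32e-05). The part of any such difference in the results below was not tested. In bulk RNA, fewer cells making a chain and less RNA of it per cell cannot be told apart.

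Among the heavy chain constant genes the line expressed IGHG1, the IgG1 constant gene (ENSG00000211896.7, chr14:105736343-105743071, minus strand, 2762 exonic bases). Its level was 482 and 465 CPM in the DMSO libraries, 453 and 433 CPM at 2 h, and 402 and 397 CPM at 6 h. The values thus stepped down from group to group without overlap. IGHG1 held 90.68 ± 0.379% of the counts on all heavy chain constant genes in DMSO (SD, n = 2), 88.8 ± 0.145% at 2 h and 88.78 ± 1.34% at 6 h. Exact binomial (Clopper-Pearson) 95% intervals, which cover counting error only, ran from 90.36 to 91.52% in DMSO replicate 1 and from 89.85 to 90.96% in DMSO replicate 2, and from 89.08 to 90.36% in 6 h replicate 1 and from 87.13 to 88.5% in 6 h replicate 2. The second DMSO and first 6 h intervals overlap. Per kb of exon the share was 87.15% in DMSO, 84.74% at 2 h and 84.71% at 6 h. No test was made of these shares. By level per kb IGHG1 ranked between 154 and 179 among all genes in the 6 libraries.

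IgM counts were at or under the floor, and the IgA genes were counted at low levels. IGHM, the IgM constant gene (ENSG00000211899.10, chr14:105851705-105856218, minus strand), had 0 and 0 counts in DMSO, 0 and 2 at 2 h, and 1 and 0 at 6 h. In the 4 libraries without an IGHM count, IGHG1 was at least 1770-fold higher per kb, computed against the floor of 3 counts in each library. IGHA1 (ENSG00000211895.5, chr14:105703995-105708665, minus strand) had 17 and 13 counts in DMSO, 11 and 20 at 2 h, and 3 and 22 at 6 h. Its spread between the 6 h replicates exceeded every difference between groups. Summed over the 6 libraries, IGHA1 had 86 counts, or 0.716 CPM with an exact Poisson 95% interval of 0.572 to 0.884. That interval pools the groups and covers counting error only, not the spread between libraries. IGHA2 (ENSG00000211890.4, chr14:105583731-105588395, minus strand) had 28 and 27 counts in DMSO, 22 and 9 at 2 h, and 33 and 21 at 6 h. It summed to 140 counts, or 1.17 CPM with an interval of the same kind of 0.98 to 1.37. Per kb, IGHG1 was 183-fold to 390-fold above IGHA1 in the 5 libraries with more than 3 IGHA1 counts, and 123-fold to 584-fold above IGHA2 in all 6.

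Second among the heavy chains came IGHE, the IgE constant gene (ENSG00000211891.6). It had 26.7 and 29 CPM in DMSO, 31.5 and 33.6 CPM at 2 h, and 26.5 and 31 CPM at 6 h. That was 5.337% of heavy chain constant counts in DMSO, 6.538% at 2 h and 6.381% at 6 h. The ratio of IGHE to IGHG1 per kb was 0.0946 and 0.106 in DMSO, 0.119 and 0.133 at 2 h, and 0.112 and 0.133 at 6 h. Of IGHE windows, 95.5% occurred in no other gene, and the rest occurred in IGHEP1. Whether fragments of IGHG1 were counted for IGHE was not tested. IGHG3 followed with 12.4 to 15.5 CPM, but its windows are shared in part with IGHG1. IGHG2 and IGHG4 stayed between 1.77 and 4.97 CPM, below 2 CPM per kb in every library, and IGHD had counts in 1 library only, with 3.

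**Figure D1:**
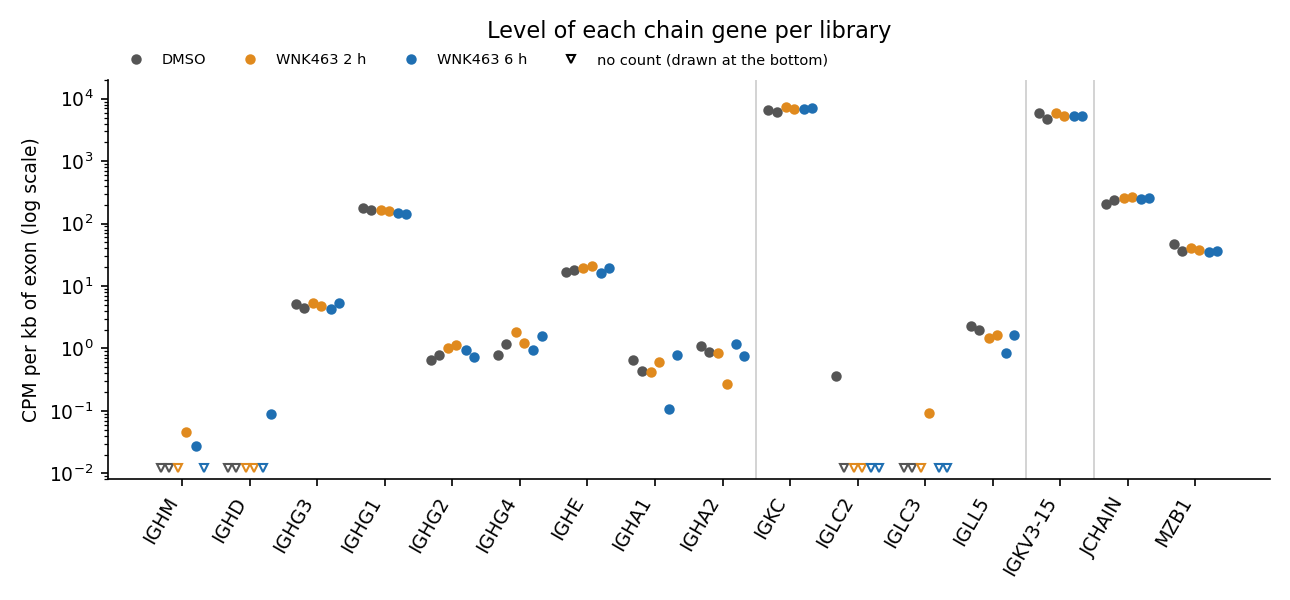
Level of each heavy chain constant, light chain and assembly gene in CPM per kb of exon (log scale), 1 point per library, with DMSO, 2 h and 6 h from left to right within a gene and open triangles for libraries without a count. IGKC lies between 6200 and 7320 CPM per kb, IGHG1 and JCHAIN between 144 and 262, and IGHM and IGLC2 have no count in most libraries.

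The light chain was kappa. IGKC (ENSG00000211592.8, chr2:88857161-88857683, minus strand, 523 exonic bases) reached 3500 and 3240 CPM in DMSO, 3830 and 3520 CPM at 2 h, and 3560 and 3720 CPM at 6 h. Both treated groups lay above DMSO, by margins as small as the gap between 3520 and 3500 CPM. Per kb of exon IGKC was among the 5 highest of all genes in each library, and by count among the 15 highest. It held 99.91% of light chain constant counts in DMSO, 99.94% at 2 h and 99.95% at 6 h. IGLC2, the lambda constant gene (ENSG00000211677.2, chr22:22900976-22901437, plus strand), had 3 counts in DMSO replicate 1 and 0 in the other 5 libraries, in which IGKC was at least 20200-fold higher per kb against the 3-count floor. IGLL5, with 43.5% of its exonic bases shared with IGLC1 and IGLJ1, held most of the few lambda counts, at 1.13 to 3.04 CPM. Of the exonic bases of IGLC1, 100% lie in IGLL5, and fragments there count for neither. The share of kappa therefore takes no account of IGLC1. The IGKC level per kb was 38.3 and 36.8 times that of IGHG1 in DMSO, 44.6 and 43 times at 2 h, and 46.7 and 49.4 times at 6 h. Its size is limited by the shared windows of IGHG1, and the change of the ratio was not tested.

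The variable genes gave 1 kappa segment and no heavy segment. IGKV3-15 (ENSG00000244437.1) held 99.77 to 99.87% of counts on the 103 IGKV genes in the 6 libraries. Its level was 2650 and 2080 CPM in DMSO, 2590 and 2320 CPM at 2 h, and 2370 and 2370 CPM at 6 h. The DMSO replicates thus enclosed the 4 treated libraries. The next IGKV genes averaged 3.14 CPM (IGKV3D-15, a near copy of IGKV3-15) and 0.343 CPM (IGKV3OR2-268). Per kb IGKV3-15 stood at 0.755 to 0.895 times IGKC, with 37.3% of its windows found in no other gene against 100% in IGKC, which limits this ratio. Of the joining segments IGKJ5 had the most counts in each library, 71 to 114. Over the 151 IGHV genes, by contrast, counts summed to 0 in 4 libraries, 2 in DMSO replicate 2 and 4 in 6 h replicate 2, with IGHV3-64, IGHV3-65 and IGHV3-63 at 2 each over all libraries. The 9 IGHJ and 37 IGHD segments had no count. IGHG1 was therefore counted without a heavy variable gene beside it. Whether its transcripts carry a heavy variable gene was not tested, nor was what the counting left out. Counts of the IGHG1 constant gene alone do not show a complete heavy chain. Counts required a mapping quality of at least 20 and skipped fragments that overlap more than 1 gene. The lambda side had IGLV3-1 at 1.42 CPM, IGLVIVOR22-1 at 0.117 CPM and IGLV1-47 at 0.115 CPM. All immunoglobulin genes together took 0.582 to 0.68% of the counts.

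The assembly factors were both expressed. JCHAIN (ENSG00000132465.11, chr4:70655541-70681817, minus strand, 1651 exonic bases) had 343 and 396 CPM in DMSO, 425 and 433 CPM at 2 h, and 408 and 426 CPM at 6 h. All 4 treated libraries lay above both DMSO libraries. Of its exonic bases 5.27% overlap the gene ENSG00000286848, and fragments there count for neither. Per kb JCHAIN was at 208 and 240 CPM in DMSO, beside 175 and 168 CPM for IGHG1, but 30.3% of IGHG1 windows are shared with other IgG genes and fragments lost there lower its level, so the order of these genes is not settled. JCHAIN over IGHG1 was 1.19 and 1.42 in DMSO, 1.57 and 1.67 at 2 h, and 1.7 and 1.79 at 6 h. MZB1 (ENSG00000170476.16, chr5:139387467-139390081, minus strand, 2286 exonic bases) had 108 and 84.4 CPM in DMSO, 91.6 and 85.4 CPM at 2 h, and 81 and 81.9 CPM at 6 h. DMSO replicate 1 was the highest library for MZB1, and DMSO replicate 2 lay within 4 CPM of both 6 h libraries. Ordered by level per kb in DMSO, IGKC led, then came JCHAIN and IGHG1, whose order is not settled, then MZB1, with IGHA2, IGHA1, IGLC2 and IGHM at the end. IGKC lay above and MZB1 below both JCHAIN and IGHG1 in every library, whereas IGHA1 and IGHA2 overlapped at 2 h and at 6 h.

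**Figure D2:**
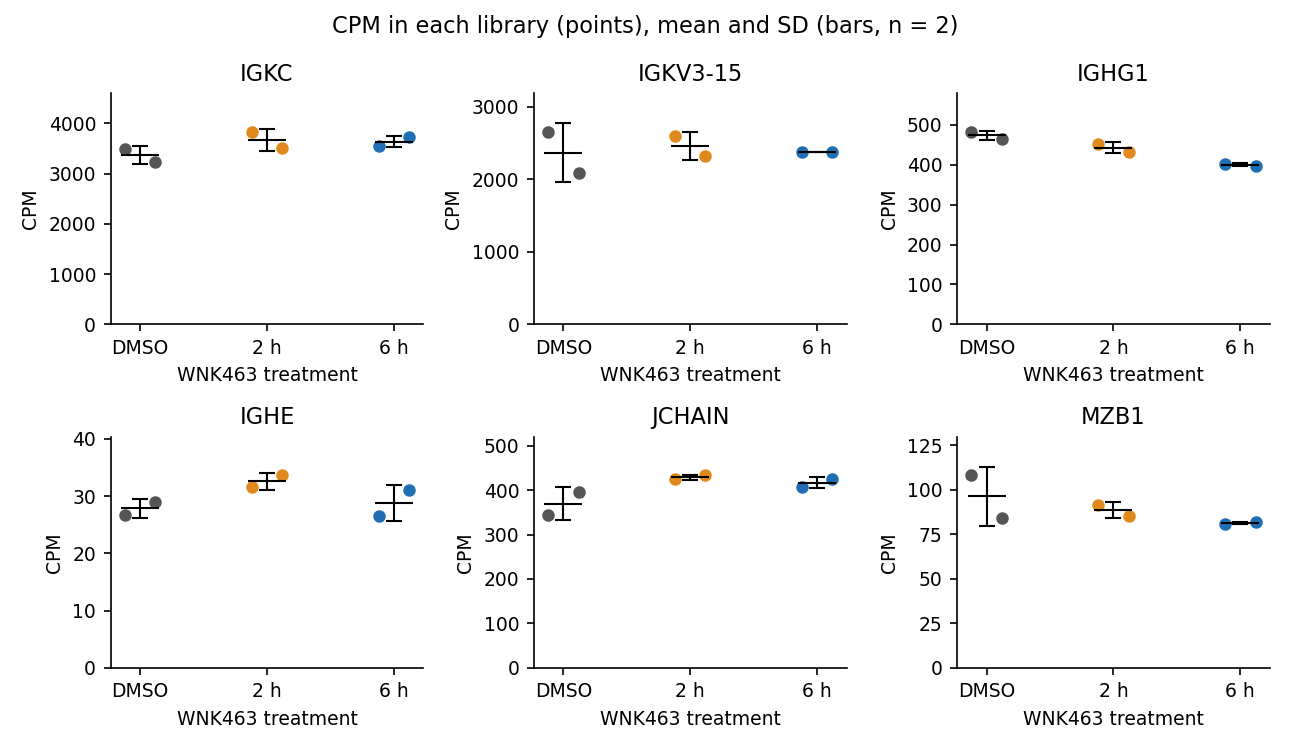
CPM in each library (points) with the mean and SD (bars, n = 2) for IGKC, IGKV3-15, IGHG1, IGHE, JCHAIN and MZB1, on axes that start at 0. IGHG1 averages 474 CPM in DMSO, 443 CPM at 2 h and 400 CPM at 6 h, while the wide DMSO bars of MZB1 and IGKV3-15 span the treated libraries.

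After 2 h of WNK463 the constant gene IGKC and JCHAIN were called slightly higher than in DMSO, and no member was called lower. The test was edgeR's quasi-likelihood test on all 6 libraries, with Benjamini-Hochberg adjustment over 15548 genes and a call at an adjusted p under 0.05. Of the 8 members 6 passed the filter on low counts, IGHM and IGLC2 did not, and 2 of the 6 were called. Of all genes tested 17% were called, 8.68% higher and 8.32% lower. JCHAIN averaged 429 ± 5.37 CPM at 2 h and 370 ± 37.4 CPM in DMSO (SD, n = 2 each), a log2 change of 0.22 ± 0.0614 (SE, adjusted p = 0.01, edgeR). IGKC averaged 3670 ± 218 CPM at 2 h and 3370 ± 183 CPM in DMSO, a log2 change of 0.12 ± 0.0446 (adjusted p = 0.0461, edgeR), or 1.09-fold. IGHG1 averaged 443 ± 14.2 CPM at 2 h and 474 ± 11.9 CPM in DMSO (log2 change -0.10, 95% interval -0.21 to 0.02, adjusted p = 0.268, edgeR) and was not called. For MZB1 the interval ran from -0.30 to 0.06, for IGHA1 from -1.65 to 1.49 and for IGHA2 from -2.13 to 0.41, so the IgA genes could have changed by large factors unseen at this depth.

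Both calls at 2 h were lost in some fits with 1 library left out. Leaving out a library can also make the test less able to call a gene. A lost call therefore does not by itself mean a smaller change. JCHAIN was not called without DMSO replicate 1 (log2 change 0.12, edgeR adjusted p = 0.079), without 2 h replicate 1 (0.23, adjusted p = 0.0521) or without 2 h replicate 2 (0.20, adjusted p = 0.115), and it was 0.33 without DMSO replicate 2. IGKC was not called without 2 h replicate 1 (0.07, edgeR adjusted p = 0.574), 6 h replicate 1 (0.13, adjusted p = 0.0739) or 6 h replicate 2 (0.13, adjusted p = 0.0723). Its change was 0.18 without DMSO replicate 1, 0.08 without DMSO replicate 2 and 0.19 without 2 h replicate 2, all called, and DESeq2 did not call it (adjusted p = 0.107). MZB1 was called lower without DMSO replicate 2 (-0.27, edgeR adjusted p = 0.0108) and had a change of 0.07 without DMSO replicate 1. IGKV3-15, spliced to IGKC in a kappa transcript, was not called (0.06, edgeR adjusted p = 0.588), and the 2 genes summed to a log2 change of 0.10 (adjusted p = 0.148). Without DMSO replicate 1 IGKV3-15 was called higher at 2 h (0.24, adjusted p = 5.99e-09), and without DMSO replicate 2 it was called lower (-0.10, adjusted p = 0.0211).

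After 6 h IGHG1 and MZB1 were called lower than in DMSO, while IGKC and JCHAIN were called higher. Of the 6 tested members 4 were called, in a comparison where 36.6% of all genes were, 18% higher and 18.6% lower. IGHG1 averaged 400 ± 3.71 CPM at 6 h and 474 ± 11.9 CPM in DMSO (SD, n = 2 each), a log2 change of -0.24 ± 0.0571 (95% interval -0.36 to -0.13, adjusted p = 0.00057, edgeR), or 0.844 times the DMSO level. MZB1 averaged 81.4 ± 0.654 CPM at 6 h and 96 ± 16.4 CPM in DMSO, a log2 change of -0.24 ± 0.0898 (-0.42 to -0.05, adjusted p = 0.0352, edgeR). JCHAIN averaged 417 ± 12.1 CPM at 6 h and 370 ± 37.4 CPM in DMSO, a log2 change of 0.17 ± 0.0615 (0.05 to 0.30, adjusted p = 0.0225, edgeR). IGKC averaged 3640 ± 113 CPM at 6 h and 3370 ± 183 CPM in DMSO, a log2 change of 0.11 ± 0.0446 (0.02 to 0.20, adjusted p = 0.0482, edgeR). None of the 4 changes exceeded a log2 of 0.24 in size. IGHA1 (-0.28, -1.87 to 1.32) and IGHA2 (-0.03, -1.25 to 1.19) were not called.

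**Figure D3:**
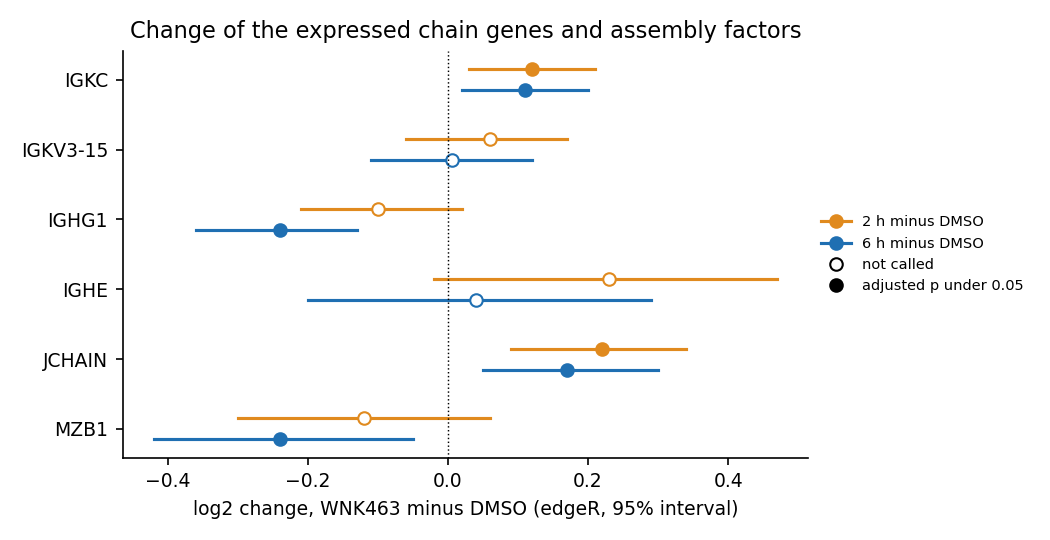
Log2 change, WNK463 minus DMSO, with its 95% interval from the edgeR fit, for 2 h (upper bar of each gene) and 6 h (lower bar), with filled points for an adjusted p under 0.05. IGHG1 and MZB1 are filled below 0 at 6 h, IGKC and JCHAIN above 0 at both times, and IGKV3-15 and IGHE are open.

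Of these 4, IGHG1 alone was called in all 16 alternative analyses, with log2 changes between -0.27 and -0.21. MZB1 was not called without DMSO replicate 1 (-0.05, edgeR adjusted p = 0.699), and its change was -0.40 without DMSO replicate 2. It was not called either without 6 h replicate 1 (-0.23, adjusted p = 0.166) or 6 h replicate 2 (-0.24, adjusted p = 0.128). JCHAIN was not called without DMSO replicate 1 (0.07, edgeR adjusted p = 0.258), 6 h replicate 1 (0.20, adjusted p = 0.0653) or 6 h replicate 2 (0.14, adjusted p = 0.221), and its change was 0.28 without DMSO replicate 2. IGKC was not called without DMSO replicate 2 (0.06, edgeR adjusted p = 0.131), 6 h replicate 1 (0.14, adjusted p = 0.0726) or 6 h replicate 2 (0.08, adjusted p = 0.378). Nor was it called without 2 h replicate 1 or 2 h replicate 2 (adjusted p = 0.0652 and 0.0665), and its change was 0.17 without DMSO replicate 1. DESeq2 called neither IGKC (adjusted p = 0.117) nor MZB1 (adjusted p = 0.0833), and edgeR did not call MZB1 with library size alone (-0.20, adjusted p = 0.0787) or upper quartile factors (-0.22, adjusted p = 0.0519). IGKC with IGKV3-15 summed to a log2 change of 0.07 (adjusted p = 0.259). IGKV3-15 by itself (0.01, edgeR adjusted p = 0.958) was called higher without DMSO replicate 1 (0.19, adjusted p = 1.32e-06) and lower without DMSO replicate 2 (-0.16, adjusted p = 3.85e-05), so its direction followed whichever DMSO library was kept.

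**Figure D4:**
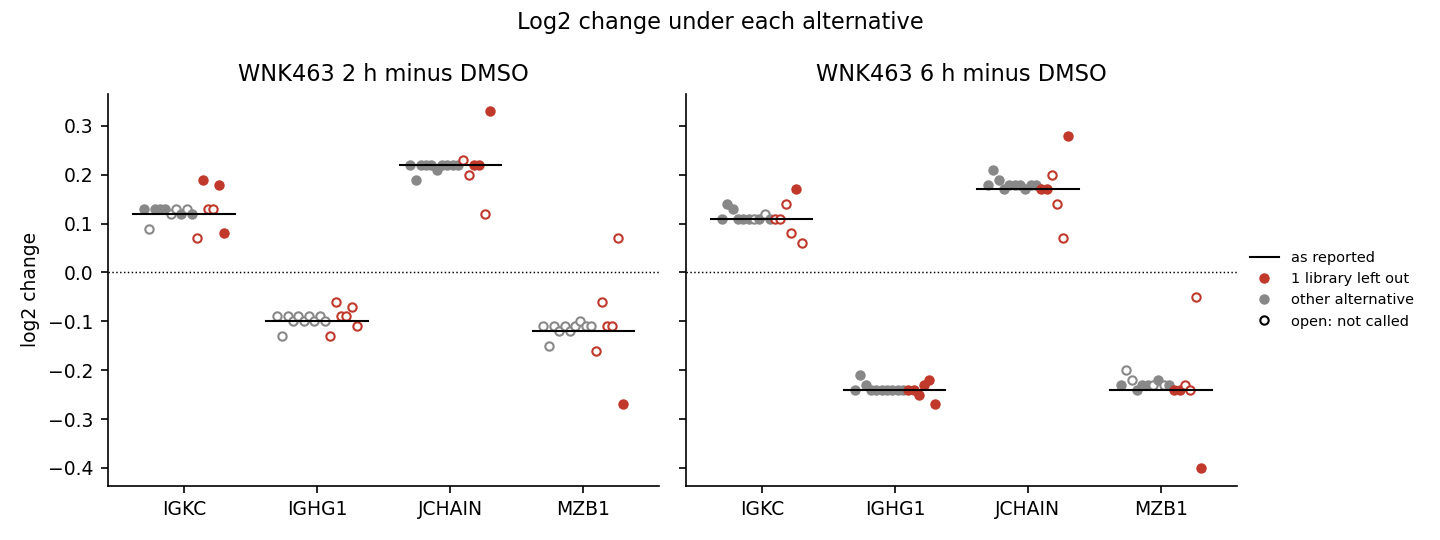
Log2 change of IGKC, IGHG1, JCHAIN and MZB1 under each alternative, WNK463 2 h minus DMSO (left) and 6 h minus DMSO (right), with red points for analyses without 1 library, open points where the gene was not called and a black line at the reported value. IGHG1 stays between -0.27 and -0.21 at 6 h, while MZB1 spans -0.40 to -0.05.

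Between 6 h and 2 h no member was called by edgeR, where 24.3% of all genes were. IGHG1 came closest, at 400 ± 3.71 CPM at 6 h and 443 ± 14.2 CPM at 2 h (log2 change -0.15, unadjusted p = 0.0131, adjusted p = 0.0529), and it was the 1 tested member with an unadjusted p under 0.05. DESeq2 and limma voom each called 1 member, IGHG1, lower at 6 h. IGHG1 was called lower by edgeR too without DMSO replicate 1 (-0.15) or DMSO replicate 2 (-0.16). The DMSO libraries enter this comparison through the shared spread, the filter, the scaling and the adjustment over genes. IGKC (-0.01, 95% interval -0.10 to 0.08) and JCHAIN (-0.04, -0.17 to 0.08) had intervals around 0, and MZB1 stood at -0.12 (-0.30 to 0.06).

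The other immunoglobulin genes gave no call in any comparison. IGHE had a log2 change of 0.23 at 2 h minus DMSO (-0.02 to 0.47, edgeR adjusted p = 0.215) and 0.04 at 6 h minus DMSO. The IgA genes summed gave -0.53 at 2 h (adjusted p = 0.478) and -0.11 at 6 h (adjusted p = 0.88), and the IGLC genes with IGLL5 gave -0.47 and -0.88 (adjusted p = 0.472 and 0.0909). CD79B, a signalling subunit of the B cell receptor, and IGLL1, a surrogate light chain gene, were tested and not called.

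The machinery around the chains was taken from lists of genes chosen with earlier results of these data known. Of 26 genes for folding and secretion of antibody chains, 10 were higher at 2 h than in DMSO and 0 lower, where 8.68% of all genes were higher, with a median log2 change of 0.11 against -0.005 over all genes tested. DNAJB9, a cochaperone of the immunoglobulin binding protein, rose by 1.01, SEL1L, of the degradation complex, by 0.37, and the chaperones HSP90B1 and CANX by 0.24 and 0.20 (edgeR, largest adjusted p = 0.0014), with CANX at 0.13 without DMSO replicate 1. At 6 h 12 were higher and 1 lower, where 18% of all genes were higher, with a median of 0.17 against -0.005. SEL1L rose by 0.73, DNAJB9 by 1.06, the oxidase ERO1A by 0.38 and HSPA5, the immunoglobulin binding protein itself, by 0.28, and TXNDC5, a disulfide isomerase with 61.1% of its exonic bases in overlap with other genes, fell by 0.40. Without 2 h replicate 1 or 2 h replicate 2 the count at 2 h was 5, and without 6 h replicate 1 that at 6 h was 7 higher and 1 lower. MZB1, which works beside these proteins, was not among the higher genes.

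Of 10 genes for transcription and mRNA processing of the chains, 4 were higher and 2 lower at 2 h than in DMSO (median 0.03). Of all genes tested, 8.68% were higher and 8.32% lower at 2 h. At 6 h 5 of the 10 were higher and 5 lower (median -0.01), where 18% of all genes were higher and 18.6% lower. The median over all genes tested was -0.005 at 2 h and at 6 h. PRDM1, a master regulator of plasma cells, rose by 0.33 at 2 h and 0.42 at 6 h (edgeR adjusted p = 4.65e-05 and 2.01e-07). ELL2, the elongation factor that favours the secreted heavy chain transcript, rose by 0.35 at 2 h, and HNRNPLL, a splicing regulator of plasma cells, by 0.35. TENT5C, a poly(A) polymerase known to act on immunoglobulin transcripts in mouse, rose by 0.38 at 6 h. POU2F1 and POU2AF1, the octamer factor and its coactivator, which act at immunoglobulin promoters, fell by 0.72 and 0.48 at 6 h (adjusted p = 3.98e-10 and 6.55e-10). POU2F2, the other octamer factor of the list, went the opposite way at a far lower level, with 2.2 ± 0.236 CPM at 6 h and 0.56 ± 0.00923 CPM in DMSO (log2 change 1.96, edgeR adjusted p = 0.0129), and was not called without 6 h replicate 1 (1.85, adjusted p = 0.0964). The plasma cell factor IRF4 fell by 0.27 at 2 h and 0.28 at 6 h. Of 7 tested class switch genes none was called at 2 h, and 6 were lower at 6 h than in DMSO (median -0.35), where 18.6% of all genes were lower, among them APEX1 (-0.68), UNG (-0.44) and RIF1 (-0.25). RIF1 was not called without 6 h replicate 1 (-0.24, adjusted p = 0.0538) or DMSO replicate 2 (-0.14, adjusted p = 0.0659), and without 6 h replicate 1 the count was 3. Of 9 immunoglobulin receptor genes 2 were tested, and TRIM21, a cytosolic receptor for antibody, was lower at 2 h (-0.83, adjusted p = 0.00496) but not called without 2 h replicate 2 (-0.45, adjusted p = 0.243), and at -1.29 without 2 h replicate 1.

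**Figure D5:**
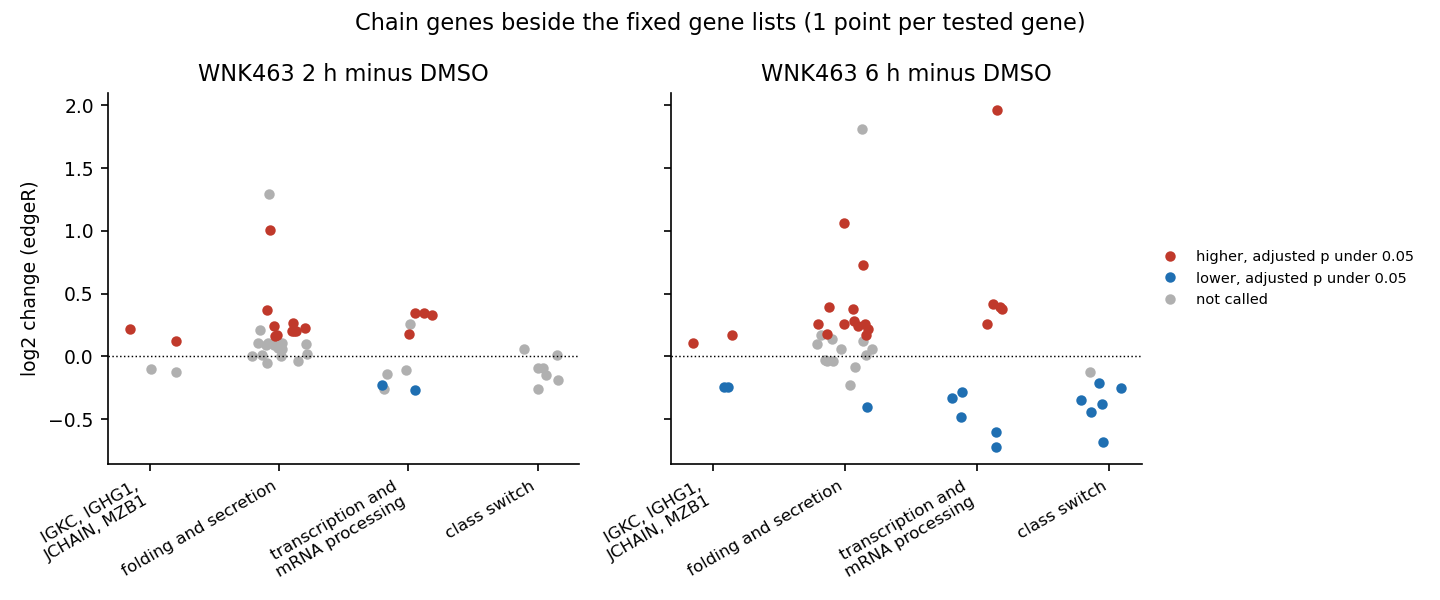
Log2 change of the 4 expressed members and of each tested gene of 3 lists, WNK463 2 h minus DMSO (left) and 6 h minus DMSO (right), with red and blue points for genes called higher and lower. The folding list lies mostly at or above 0 and the class switch list below 0 at 6 h, while the 4 members lie between -0.24 and 0.22.

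Genes whose pattern over the 6 libraries came closest to each member were found by the root mean square difference of log2 CPM, centred per gene, among tested genes that averaged 4 CPM or more. For IGHG1, whose range was 0.28, these were NFATC3 (0.0126), THOC5 (0.019) and BLTP3A (0.0199). For IGKC, with a range of 0.24, they were ASL (0.023), PHF12 (0.0234) and B4GALT3 (0.0249). For JCHAIN, with a range of 0.34, they were EDEM2 (0.0145), GLUD1 (0.0264) and LTN1 (0.0269), and for MZB1, with a range of 0.41, PKMYT1 (0.0227), RPS25 (0.0244) and NBPF11 (0.0252). Over 6 libraries of 1 cell line such closeness describes these libraries only.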

How the data were processed

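The deposited table holds fragment counts per gene, made by the authors with featureCounts 2.0.0 on GENCODE 34, per the file headers, which also record paired fragments counted without regard to strand and a minimum mapping quality of 20. Trimmomatic, STAR and hg38 are named in the submitters' processing notes, with no versions. Exon lengths in the deposited table were used for levels per kb. Sequences and gene types came from GENCODE 29. The lines of 1 broken record were joined. The analysis ran in edgeR 4.0.16 under R 4.3.3, with filterByExpr, TMM, 1 mean per group over 6 libraries, and quasi-likelihood tests of each time against DMSO and of 6 h against 2 h. SE were derived from the F statistic. The spread of a gene drew on 42.8 prior and 3 residual degrees of freedom. Alternatives were other scalings, filters, a replicate block, each library left out, separate fits for each pair of groups, limma 3.58.1 voom and DESeq2 1.42.0. The sum of IGKC and IGKV3-15 was added after seeing the data. Fits were tested on simulated data. The members and the lists were chosen with earlier results of these data known. Named were all members, up to 4 called genes per list and comparison with the smallest adjusted p, the 3 highest variable genes per locus and the 3 closest patterns; some genes that this takes in are left out of the text. IGHE, IGLL5, CD27, CIITA, POU2F2 and TXNDC5 at 6 h were named after their values were seen. Counts of replicates differed beyond sampling noise, with a chi-square of 8.41 in DMSO, 4.15 at 2 h and 3.57 at 6 h for each degree of freedom. Figures used Python 3.11.15 and matplotlib 3.10.9.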

Additional observations from a re-analysis of the deposited data

How the results depend on the processing

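IGHG1 at 6 h minus DMSO kept its direction and its call in all 16 alternatives. The count of called members, 2 at 2 h minus DMSO, was 1 with library size alone, with a filter of 1 CPM in 2 libraries, with DESeq2 and with a fit of only the 2 groups compared. At 6 h minus DMSO it was 4, 3 with library size alone and with upper quartile factors, where MZB1 lost its call, and 2 with DESeq2 and with only the 2 groups compared. At 6 h minus 2 h it was 0, and 1 with DESeq2, limma voom and only the 2 groups compared. With each library left out in turn, the count ranged from 0 to 3 at 2 h minus DMSO, from 1 to 3 at 6 h minus DMSO and from 0 to 1 at 6 h minus 2 h, where a group left with 1 library was assumed to vary like the others. Calls over all genes ranged from 1528 (without 2 h replicate 2) to 2911 of a reported 2642 at 2 h minus DMSO, from 4021 to 5600 of 5693 at 6 h minus DMSO, and from 2288 (without 6 h replicate 1) to 4661 of 3771 at 6 h minus 2 h. These ranges of calls over all genes are those of the fits with 1 library left out. Of the other alternatives, the filter of 1 CPM in 2 libraries gave the most calls at 6 h minus DMSO, 5747. IGKV3-15 turned round without DMSO replicate 2, its log2 change ranging from -0.10 to 0.24 (without DMSO replicate 1) at 2 h minus DMSO and from -0.16 to 0.19 at 6 h minus DMSO. Weighed by level per kb, the share of IGHG1 was 87.15% in DMSO, 84.74% at 2 h and 84.71% at 6 h, and that of IGKC 99.96%, 99.97% and 99.98%. Class switch genes, 0 called at 2 h minus DMSO, had 2 lower with library size alone. The causes were not tested.

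Replicates of the same number did not deviate together (correlations of -0.0899, -0.0307 and 0.083). The count columns are lettered A for replicate 1 and B for replicate 2 in all groups. With 2 libraries a group, the correlations cannot tell whether libraries of the same letter were paired. With the replicate number as a block the called members stayed at 2, 4 and 0, and the calls over all genes were 2658, 5686 and 3807. Depth limits IGHM, IGLC2, IGHA1 and IGHA2, whose counts of 33 or fewer per library leave wide intervals.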
